A study of Dendrobium officinale with 6 samples.

Results

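The cyclins, cyclin-dependent kinases (CDKs) and CDK inhibitors of *Dendrobium officinale*, a medicinal orchid, were compared between leaves and protocorm-like bodies (PLBs), which are embryo-like tissue masses that multiply in culture. Members were the unigenes, the assembled transcript sequences of this species, whose best protein match carried the name cyclin-A, cyclin-B, cyclin-D, cyclin-dependent kinase or cyclin-dependent protein kinase. The rule found 222 of 157901 unigenes. By name, 41 were D-type, 5 A-type and 14 B-type cyclins, 138 were CDKs of the classes B to G, 3 were CDK regulatory subunits (CKS) and 17 were CDK inhibitors. The remaining 4 were called calcyclin-binding protein, which matched only through the letters of its name and is neither a cyclin nor a CDK.

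The cell division cycle of plants is driven by CDKs, most of which are active only when bound to a cyclin. D-type cyclins act in the passage from the first gap phase into DNA synthesis, where their kinases release E2F transcription factors from the retinoblastoma-related protein. A-type cyclins act in DNA synthesis and the second gap phase, and B-type cyclins act in mitosis together with CDKB, a kinase class particular to plants. CDK inhibitors bind these complexes and block them, whereas CDKC, CDKE and CDKG act mainly in transcription and RNA processing.

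RNA-Seq was done on 3 libraries per tissue. The leaf libraries (A10, A11 and A12) came from the original, greenhouse-grown plants. The PLB libraries (A13, A14 and A15) came from tissue culture. The study used seeds to start its cultures and kept them in 16 h of light and 8 h of dark, with 60 days for induction. Its best medium for propagation was 1/2 MS with α-NAA at 0.5 mg/L, 6-BA at 1.0 mg/L, 2,4-D at 1.5 to 2.0 mg/L and potato juice at 100 g/L. The paper does not state which medium and time the sequenced PLBs had. Organ, culture, plant growth regulators and the plants of origin therefore differed together between the groups and cannot be told apart. In such bulk tissue, fewer dividing cells and less RNA per dividing cell cannot be told apart either.

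Expected counts, the estimated reads per unigene, summed to 17602153 to 18408442 per library. The labels of the tissues were checked with marker genes. The summed level of chlorophyll a-b binding proteins was 13748 to 16541 FPKM in leaf and 597.3 to 1769 FPKM in PLB, with PLB library A15 the lowest. FPKM is the number of fragments scaled to the length of the unigene and to the fragments of the library. Proliferating cell nuclear antigen, a DNA replication clamp, was at 8.56 to 11.06 FPKM in leaf and 16.46 to 23.46 FPKM in PLB, whereas the other marker of DNA synthesis, histone H4 (2 unigenes), went the other way, at 2.42 to 3.71 FPKM in leaf and 0.13 to 1.83 FPKM in PLB. In PLB, A15 was again the lowest for histone H4. The 9 unigenes of the WUSCHEL-related homeobox family were at 53.8 ± 5.53 and 123 ± 28.4 FPKM (SD, n = 3). No unigene carried the names AINTEGUMENTA-like, BABY BOOM, FUSCA3 or LEC2.

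Reads of 1 gene were divided among several unigenes by the assembly, so the members were compared at 3 levels. The first was the unigene. The second was the contig cluster (CL and a number), a group of similar contigs, or the unclustered unigene, and 93 such units held a member. The third was the locus, the sum of all unigenes whose best nucleotide match carried the same gene number (LOC) of the related orchid *Dendrobium catenatum*, and 42 loci held a member. A unit was called where edgeR's quasi-likelihood F test gave a Benjamini-Hochberg adjusted p of at most 0.001 over all features of that level and the log2 fold change of PLB over leaf was at least 1 in size. Fold changes are given with their standard error (SE). The fit scales libraries by TMM factors, which FPKM does not hold. Without those factors the median log2 fold change of all cluster units moved from 0.000606 to 0.35, so a fold change below is relative to the median unit and tends to lie below the ratio of the FPKM values beside it.

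The names of the members were set against the protein domain (Pfam) that the authors deposited for each unigene, which the rule did not use. In all, 178 of 222 members carried the domain of their class, 27 had no domain named and 17 had another. All 5 A-type cyclins and 30 of 41 D-type cyclins carried a cyclin domain, but only 6 of 14 B-type cyclins did. The exception with the most reads was cyclin-B1-2-like (CL839), whose longer contig carried the domain of proteasome maturation factor UMP1, an assembly factor of the proteasome, and whose other contig carried none. Its level was 175.9, 181.4 and 187.9 FPKM in leaf and 158.6, 217.1 and 170.4 FPKM in PLB, so the tissues overlapped. It made up 94.9% ± 0.388 of the FPKM of all members named cyclin B in leaf and 92.1% ± 2.85 in PLB (SD, n = 3). The 6 B-type members with a cyclin domain summed to only 7.73 ± 0.824 and 9.90 ± 2.47 FPKM.

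Other names also went against the domain or the locus. Of the 8 unigenes named cyclin-B2-2, 4 lay on loci that the nucleotide match called a potassium channel subunit or left uncharacterized, and those 4 had no cyclin domain. A total of 4 of the 5 unigenes named cyclin-D6-1 carried a protein kinase domain, 6 of 70 CDKG unigenes carried a pentatricopeptide repeat, and the CDK inhibitor cluster with the most counts, CL11190, had a lectin as its best SwissProt match although it carried the CDK inhibitor domain. CL4211, named CDK F-4 in the second title of its protein match, was first titled a probable cdc7 kinase, and its member contigs had a CDC2 homolog or CDKB2-2 as their best SwissProt match. The number within a cyclin class also differed between sources. Cyclin-D3-1 units CL7193, CL4224, CL510 and Unigene28624 had cyclin-D4-1 as their best SwissProt match, and cyclin-B3-1 CL8185 had cyclin-B2-3. All these units are given below under the names the rule used.

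At the level of unigenes, 155 members passed the filter on low counts, and 30 were called higher and 37 lower in PLB. That is 43.2% of the members tested, beside 39.7% of all 70383 unigenes tested. At the level of cluster units, 5 of 59 tested were called higher, against 17.4% of all units, and 10 were called lower, against 22.9%. Together that is 25.4% of the tested units, beside 40.3% of all 36425. These units are not all separate genes. Among those called lower, Unigene42155, Unigene42149, Unigene57193, Unigene42146 and Unigene42182 belong to 1 locus, LOC110093118 (CDK F-3). The member contigs of CL57, which was called higher, belong to the same locus. As a sum LOC110093118 was not called (log2 fold change -0.02, adjusted p = 0.825). At the level of loci, 4 of 39 were called higher and 6 lower, which is 25.6% beside 35.8% of all 17445. The share of called members was therefore near the background for unigenes and below it for the sums over clusters and loci. The median log2 fold change was -0.44 over the members tested as unigenes, -0.10 as cluster units and -0.03 as loci, beside medians near 0 for all features (0.000783, 0.000606 and 0.0143).

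FPKM did not overlap between the tissues in 123 of 155 tested unigenes, 42 of 59 cluster units and 27 of 39 loci, beside 79.3%, 77.7% and 78.5% of all features. An exact two-sided permutation test of 3 libraries against 3 cannot give a p under 0.1, so calls rest on the fit across all features.

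**Figure D1:**
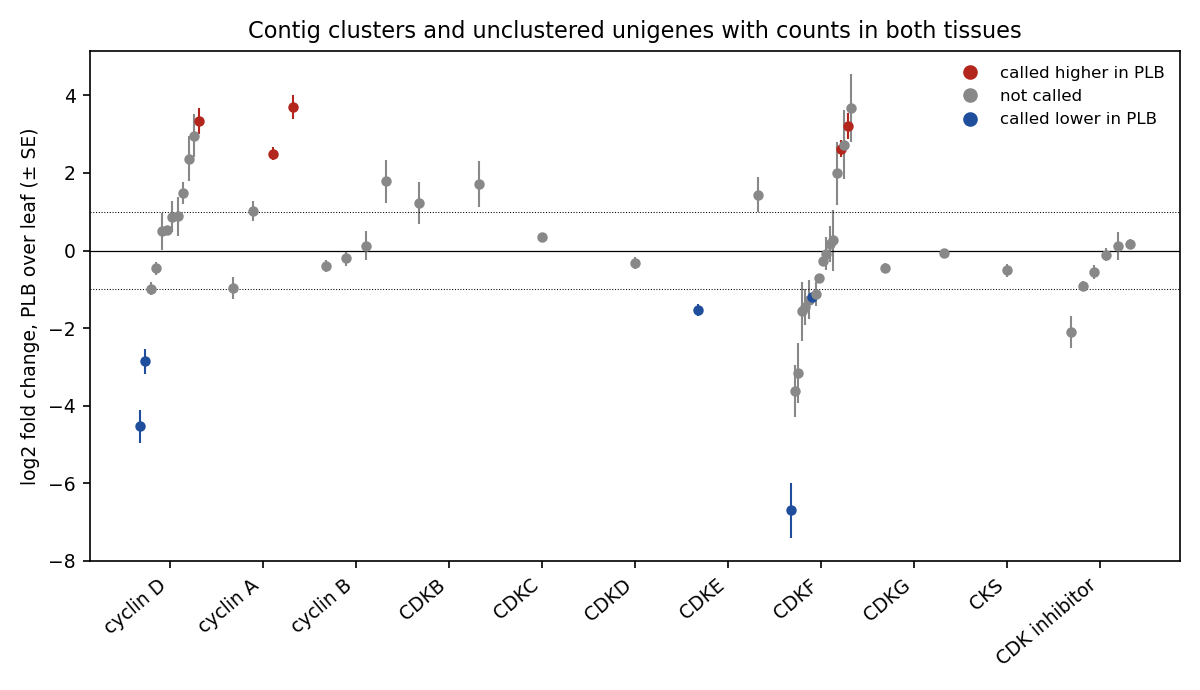
Log2 fold change of PLB over leaf with its standard error (SE) for the 53 tested cluster units with counts in both tissues, grouped by class on the horizontal axis; 5 tested units with no counts in PLB and calcyclin-binding protein are left out, and dotted lines mark -1 and 1. The called cyclin A units lie above 0, the called cyclin D units lie on both sides, and no unit of cyclin B, CDKB, CDKG or the CDK inhibitors was called.

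D-type cyclins held about the same summed FPKM in both tissues, while the makeup of that sum differed. Over the 41 unigenes the sum was 165 ± 1.91 FPKM in leaf and 168 ± 19.2 FPKM in PLB (SD, n = 3). Of 13 cluster units tested, 1 was called higher in PLB and 3 lower. The cluster with the most reads, cyclin-D3-1-like CL7193, gave 35.7% ± 0.658 of the class in leaf and 65.0% ± 3.83 in PLB, whereas cyclin-D2-1 and a further cyclin-D3-1-like cluster held large parts of the leaf sum and small parts of the PLB sum.

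Cyclin-D2-1 (CL11912) was at 34.41, 33.8 and 38.39 FPKM in leaf and 8.43, 7.33 and 3.19 FPKM in PLB. Every leaf library was above every PLB library. The log2 fold change was -2.85 (SE 0.323, adjusted p = 8.93e-05), and its share of the class was 21.5% ± 1.38 in leaf and 3.66% ± 1.31 in PLB. Cyclin-D3-1-like CL4224 was at 22.31, 26.0 and 21.6 FPKM in leaf and 2.43, 0.89 and 0.60 FPKM in PLB. Among the cyclin clusters with counts in both tissues it fell the most (log2 fold change -4.53, SE 0.418, adjusted p = 3.05e-05), and its share of the class was 14.1% ± 1.40 and 0.743% ± 0.487. The calls of both clusters held when any 1 of the 6 libraries was left out and under the other 7 settings compared. The sums over their loci, LOC110111701 and LOC110106939, gave -2.79 and -4.45; the first lost its call without leaf library A12.

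CL7193 itself was at 58.79, 58.05 and 60.29 FPKM in leaf and 115.9, 107.9 and 102.9 FPKM in PLB. The tissues did not overlap, yet the unit was not called, as its log2 fold change was 0.52 (SE 0.110, adjusted p = 0.00257). Scaling by library size alone gave 0.87. The next clusters by level were not called either. Cyclin-D4-1-like CL11074 was at 16.15 to 17.91 FPKM in leaf and 12.92 to 17.7 FPKM in PLB, which overlap, and cyclin-D3-1-like CL510 was at 19.67 to 21.43 and 10.07 to 14.84 FPKM (log2 fold change -0.98, SE 0.163, adjusted p = 0.00071), just short of the fold required.

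The D-type cyclin called higher in PLB was a low one. Cyclin-D3-1 Unigene28624 was at 0.30, 0.18 and 0.21 FPKM in leaf and 3.20, 2.73 and 2.95 FPKM in PLB, and no value of one tissue came near the other. Its log2 fold change was 3.34 (SE 0.346, adjusted p = 5.56e-05). On the same locus, LOC110115423, Unigene20456 was at 1.61, 2.22 and 1.58 FPKM in leaf and had no count in PLB, which makes it at least 25.6-fold higher in leaf against a floor of 3 counts over the PLB libraries. This call was lost without leaf library A11 or A12. Summed over its 6 unigenes the locus was at 5.40, 6.68 and 4.06 FPKM in leaf and 8.57, 5.98 and 6.16 FPKM in PLB, the tissues overlapped and it was not called (log2 fold change 0.69, SE 0.224, adjusted p = 0.0242).

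Several low D-type cyclins were at higher levels in PLB without a call, and for some the call depended on the setting. Cyclin-D3-2-like, at locus LOC110104947, was at 0.63, 0.58 and 1.07 FPKM in leaf and 9.90, 4.04 and 3.45 FPKM in PLB (log2 fold change 2.60, SE 0.527, adjusted p = 0.00275). DESeq2 called this locus higher (2.62, adjusted p = 2.53e-05), and its unigenes Unigene36386 and Unigene30206 were called with no filter on low counts (adjusted p = 0.000283 and 0.000744). Cyclin-D3-3-like, at LOC110116305, was at 0.23, 0.23 and 0.24 FPKM, then 3.68, 4.61 and 1.34 FPKM, on 3 counts in leaf and 40 in PLB, and did not pass the filter, although without a filter its Unigene3314 was called (adjusted p = 0.000678). The only cyclin-D6-1 unigene with a cyclin D6-1 match in SwissProt, Unigene42166, was at 0.84 to 0.92 FPKM in leaf and 2.76 to 3.67 FPKM in PLB (log2 fold change 1.48, SE 0.284, adjusted p = 0.00157). DESeq2, scaling by library size alone, limma at both pseudocounts and the fit with no filter did call it, where the adjusted p was 9.52e-05 to 0.000797. Cyclin-D2-1-like Unigene28934 was at 0.61 to 1.28 FPKM in leaf and 1.75 to 2.70 FPKM in PLB (log2 fold change 0.88, SE 0.402, adjusted p = 0.0789), and cyclin-D1-1-like Unigene42688 overlapped between the tissues. Cyclin-D2-2-like LOC110092999, which is 1 contig of CL510, went the other way, from 6.12, 7.79 and 7.18 FPKM to 1.38, 2.64 and 0.92 FPKM, and was called lower (log2 fold change -2.36, SE 0.362, adjusted p = 0.000661). That call held in only 2 of the 6 fits that leave out a library, and the same contig was not called in the test over unigenes.

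**Figure D2:**
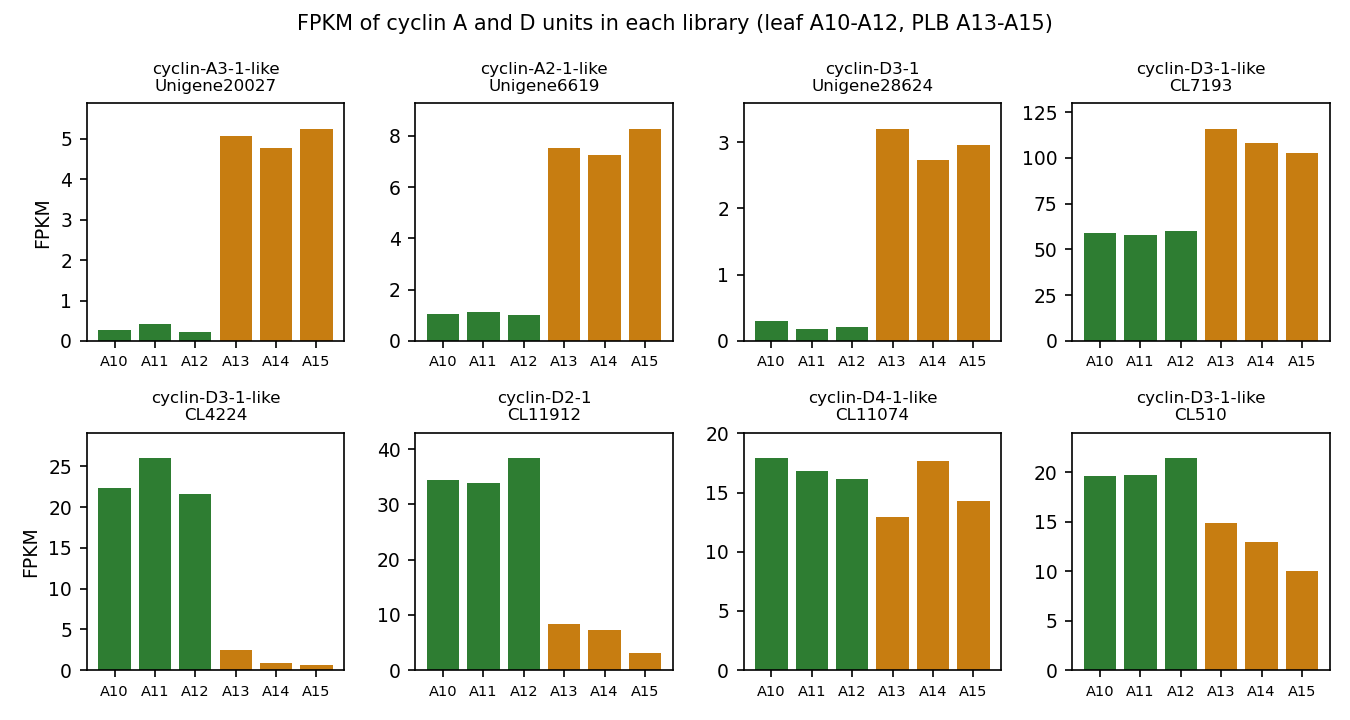
FPKM of 8 A-type and D-type cyclin units in each library (bars; leaf A10 to A12 in green, PLB A13 to A15 in orange), each panel with its own axis from 0. Cyclin-A3-1-like, cyclin-A2-1-like and cyclin-D3-1 are low in all leaf libraries, and cyclin-D3-1-like CL4224 and cyclin-D2-1 are low in all PLB libraries.

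A-type cyclins were higher in PLB as a class sum, at 7.10, 8.49 and 7.76 FPKM in leaf and 25.51, 24.86 and 20.85 FPKM in PLB, a ratio of 3.05. Of 4 units tested, 2 were called higher and none lower. Cyclin-A3-1-like (Unigene20027) belongs to a group that acts early in DNA synthesis in other plants. It was at 0.26, 0.41 and 0.23 FPKM in leaf and 5.07, 4.77 and 5.25 FPKM in PLB, an even level across the PLB libraries. The log2 fold change was 3.71 (SE 0.314, adjusted p = 1.95e-05).

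Cyclin-A2-1-like (Unigene6619) belongs to the group that acts from DNA synthesis towards mitosis. It was at 1.04, 1.13 and 1.02 FPKM in leaf and 7.54, 7.25 and 8.27 FPKM in PLB, where the log2 fold change was 2.497 (SE 0.172, adjusted p = 6.64e-06). A second unigene of its locus, Unigene57518, was higher in leaf, at 3.09, 4.41 and 4.10 FPKM against 2.09, 2.75 and 2.67 FPKM, and was not called (log2 fold change -0.96, adjusted p = 0.0157). The sum of both, LOC110096412, was still called higher, at 4.13 to 5.54 FPKM in leaf and 9.63 to 10.94 FPKM in PLB, with a smaller log2 fold change than Unigene6619 alone (1.45, SE 0.143, adjusted p = 6.74e-05). With limma at a pseudocount of 1 this locus was not called.

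The other cyclin-A2-1-like cluster, CL5835, was at 3.71, 3.51 and 3.43 FPKM in leaf and 8.66, 7.66 and 4.57 FPKM in PLB. It did not overlap between the tissues but was not called (log2 fold change 1.03, SE 0.256, adjusted p = 0.00632). Without PLB library A15 it was called, at 1.28 (adjusted p = 0.000357), and so it was with no filter on low counts (1.04, adjusted p = 0.000926). Cyclin-A1-4 (Unigene44287), of a group tied to mitosis and meiosis in other plants, had no count in leaf and 157 counts in PLB, which is at least 52.6-fold. Its PLB levels were 2.15, 2.43 and 0.09 FPKM, and it did not pass the filter on low counts.

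The B-type cyclins and their partner kinases of class B were at low levels in both tissues once cyclin-B1-2-like is set aside, and none of their cluster units was called. The only locus called, LOC110111113, is the potassium channel subunit, of whose 53 unigenes 1 carries the name cyclin-B2-2. Cyclin-B3-1 (CL8185) was at 7.44, 8.66 and 7.04 FPKM in leaf and 7.99, 10.71 and 7.05 FPKM in PLB, which overlap (log2 fold change -0.20, SE 0.199, adjusted p = 0.384). Cyclin-B2-2 on a locus that the nucleotide match also calls a mitotic cyclin, LOC110114934 (2 of its 3 unigenes are members), was at 0.14, 0.07 and 0.20 FPKM in leaf and 4.24, 2.16 and 0.93 FPKM in PLB. Its log2 fold change of 3.36 (SE 0.613, adjusted p = 0.00163) missed the threshold, and without library A15 it was 3.67 and called (adjusted p = 0.000647). DESeq2 also called this locus. The unigene of this locus that is not a member, CL12859, was at 0.22, 0.62 and 0.93 FPKM in the PLB libraries. The member unigenes had no count in A15. The other such locus, LOC110097268, had 14 counts in PLB and none in leaf.

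CDKB2-1 (LOC110106063), whose transcripts peak at mitosis in other plants, was at 0.48, 0.38 and 0.55 FPKM in leaf and 3.11, 2.16 and 0.64 FPKM in PLB (log2 fold change 1.78, SE 0.577, adjusted p = 0.0238). CDKB1-1 (LOC110098343), which acts from the second gap phase into mitosis, was at 0.93, 0.62 and 0.55 FPKM and then 3.38, 2.11 and 1.30 FPKM (log2 fold change 1.42, SE 0.434, adjusted p = 0.0191). Both loci were above leaf in all PLB libraries, and neither was called, also without library A15 (2.21 with adjusted p = 0.00103, and 1.70 with adjusted p = 0.00523). The CDKB1-1 unit with the most counts, Unigene18609, overlapped by itself, at 0.42 to 0.70 FPKM in leaf and 0.63 to 2.38 FPKM in PLB.

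The PLB libraries differed from each other in these mitotic members. The sum over CDKB, cyclin-A1-4 and cyclin-B2-2 on its cyclin loci was 15.98 FPKM in A13, 9.41 in A14 and 2.03 in A15, against 1.00 to 1.41 FPKM in leaf. The sum behind A15 was 40 counts, against 247 in A13 and 188 in A14. Cyclin-A3-1 and the cyclin-A2-1 locus LOC110096412 were at their highest in A15, but the other cyclin-A2-1 locus, LOC110092169 (CL5835), was at its lowest there, as was the sum of the 3 cyclin-A2-1 members, at 18.29, 17.66 and 15.51 FPKM. The A-type cyclins thus did not share 1 order. Library A15 also had the lowest chlorophyll a-b binding protein level, and it had the highest level of the cytokinesis syntaxin KNOLLE-like (CL7902), at 8.88, 15.76 and 34.73 FPKM in the 3 PLB libraries and at no count in leaf. The part of these differences in the results was not tested, apart from the values without A15 given beside them. Leaving A15 out took the members called higher from 5 to 8 cluster units and from 4 to 7 loci. Among those added, Unigene42169 (CDK F-3), cyclin-A1-4 and cyclin-D3-3-like LOC110116305 had not passed the filter on low counts in the main fit. The share of all features called without A15 was not determined, so this rise cannot be set against the background.

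**Figure D3:**
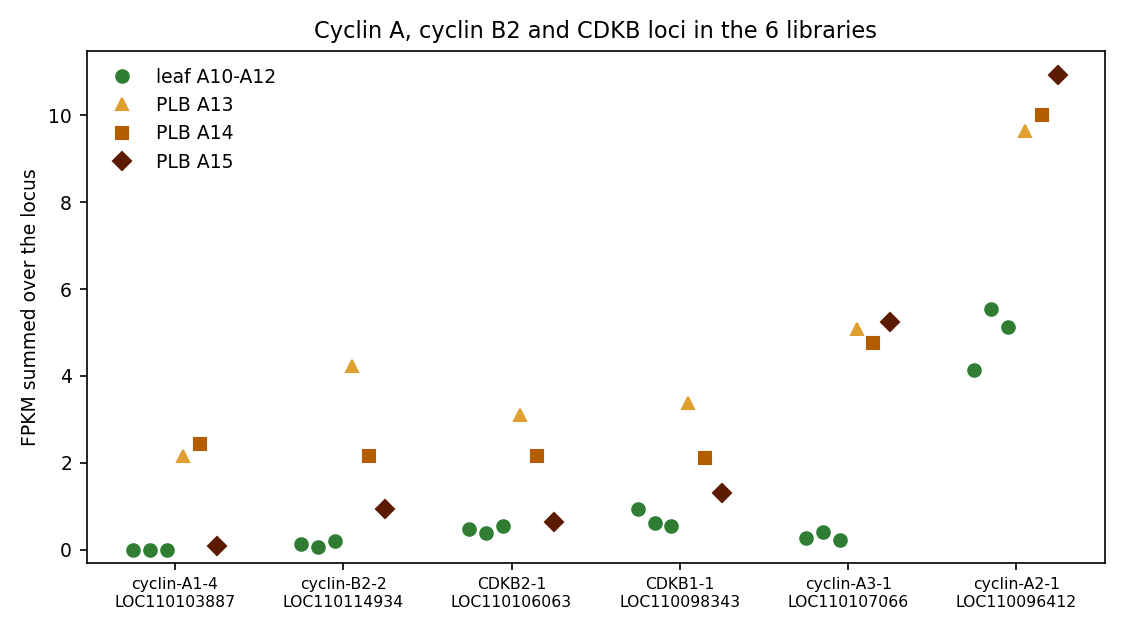
FPKM summed over 6 loci in each library (vertical axis), with leaf libraries as circles and each PLB library with its own symbol. In cyclin-A1-4, cyclin-B2-2, CDKB2-1 and CDKB1-1 library A15 is the lowest of the PLB libraries, whereas in cyclin-A3-1 and in the cyclin-A2-1 locus shown, LOC110096412, it is the highest. The A15 value of cyclin-B2-2 comes from a unigene of the locus that is not a member.

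Among the other CDKs, CDKE-1 and CDKF-1 were lower in PLB as sums over their contigs. CDKE-1, the kinase of the Mediator complex of transcription, was at 33.25, 31.65 and 35.04 FPKM in leaf and 18.01, 18.27 and 13.07 FPKM in PLB as CL1581 (log2 fold change -1.53, SE 0.165, adjusted p = 6.85e-05). Its locus sum, LOC110107567, with 1 more unigene that had more counts in PLB, gave -1.31 (SE 0.120, adjusted p = 4.89e-05). Tested singly, the 3 CDKE-1 unigenes had log2 fold changes from -3.486 to 2.599, 2 of them positive. Of these unigenes, 1 was called lower and none higher. On log2 FPKM values limma did not call the locus at either pseudocount (-0.59 and -0.57), nor CL1581 at a pseudocount of 1 (-0.99). CDKF-1, a kinase that activates other CDKs in Arabidopsis, was at 27.72, 27.07 and 26.36 FPKM in leaf and 15.68, 13.80 and 15.57 FPKM in PLB (CL5252, log2 fold change -1.20, SE 0.101, adjusted p = 1.88e-05). The libraries of each tissue lay close together and far from those of the other, but the size was near the limit: with library size alone it was -0.85 and not called. With limma at either pseudocount CL5252 was not called either, and the same settings lost the call of its locus, LOC110103033.

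CL4211, the unit with the cdc7 and CDC2 names, was called higher in PLB. It was at 1.19, 1.34 and 0.90 FPKM in leaf and 11.32, 11.13 and 8.86 FPKM in PLB, without overlap. The log2 fold change was 2.63 (SE 0.216, adjusted p = 1.66e-05), and all 4 of its contigs, 3 of them members, were called higher. The locus sum, LOC110105257, gave 2.70 (SE 0.187, adjusted p = 1.33e-05). No alternative changed either call.

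CDK F-3 showed calls in both directions that its locus sum did not. The 22 contigs of CL57, of which 9 were members, were at 0.81, 1.69 and 0.62 FPKM in leaf and 14.93, 13.32 and 17.66 FPKM in PLB, and the cluster was called higher (log2 fold change 3.21, SE 0.332, adjusted p = 5.54e-05), although 2 of its 4 contigs called higher were not members. Unclustered CDK F-3 unigenes were called lower: Unigene42155, at 6.01, 4.59 and 6.50 FPKM in leaf and with no count in PLB (at least 184-fold), and Unigene42149, at 4.84, 4.61 and 3.52 FPKM and then 0, 0.15 and 0 FPKM. A further 3, Unigene57193, Unigene42146 and Unigene42182, with 46.38 to 185.18 counts in leaf and none in PLB, kept their call in at most 1 of the 6 fits that leave out a library. These unigenes and the 9 member contigs of CL57 carry the gene number LOC110093118, while 12 contigs of CL57 carry that of Down syndrome critical region protein 3. Of the 39 unigenes of LOC110093118, 7 had counts only in leaf, 4 only in PLB, 22 in both and 6 in neither. The locus sum was at 24.27, 22.40 and 22.12 FPKM in leaf and 18.73, 16.71 and 17.33 FPKM in PLB and was not called (log2 fold change -0.02, SE 0.086, adjusted p = 0.825).

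The kinases of transcription and splicing that remained were not called as cluster units. CDKC-2 (CL14474), a kinase of RNA polymerase II, was at 33.41, 35.68 and 36.66 FPKM in leaf and 58.38, 55.35 and 60.15 FPKM in PLB (log2 fold change 0.34, SE 0.103, adjusted p = 0.0165). The locus LOC110102683, which takes in 1 of its 5 contigs, was called higher at 1.01 (SE 0.155, adjusted p = 0.000649), and 5 of 6 fits that leave out a library lost this call. The CDKG-2-like cluster CL687, with the highest FPKM of the CDKs, was at 152.8, 155 and 146.1 FPKM in leaf and 140.8, 138.4 and 187.6 FPKM in PLB, which overlap (log2 fold change -0.45, SE 0.137, adjusted p = 0.0158). CDKD-1 (CL5916), another CDK-activating kinase, was at 8.42 to 10.28 FPKM in leaf and 8.25 to 10.88 FPKM in PLB (log2 fold change -0.33, SE 0.149, adjusted p = 0.0767).

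The 14 CDKF units that were not called included the ones with the most reads. CDK F-4-like CL2942, the highest, was at 40.94 to 41.94 FPKM in leaf and 44.21 to 53.68 FPKM in PLB (log2 fold change -0.26, SE 0.101, adjusted p = 0.0445), and its sign changed with the scaling. CDK F-4 CL10191 was at 33.6 to 35.12 FPKM and then 23.17 to 30.39 FPKM (log2 fold change -0.71, SE 0.111, adjusted p = 0.000471). The second CDKG-2-like cluster, CL13719, was at 24.77 to 25.92 and 29.06 to 30.27 FPKM (log2 fold change -0.05, SE 0.096, adjusted p = 0.628), and of its 19 tested contigs 4 were called higher and 2 lower, against 7 and 10 of 30 in CL687.

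The CDK subunit and inhibitors were not called as clusters or loci. The CKS1 cluster, CL4617, of a small protein that docks CDKs to their substrates, was at 36.59, 37.56 and 33.34 FPKM in leaf and 25.91, 35.57 and 30.75 FPKM in PLB, which overlap (log2 fold change -0.50, SE 0.166, adjusted p = 0.0232). The inhibitor members summed to 62.9 ± 1.78 FPKM in leaf and 53.1 ± 2.32 FPKM in PLB (SD, n = 3).

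Inhibitor 1-like CL11190 had the most counts of this class. It was at 31.34, 26.18 and 28.73 FPKM in leaf and 20.24, 19.94 and 21.42 FPKM in PLB, without overlap, and its log2 fold change of -0.90 (SE 0.115, adjusted p = 0.000162) was under the size required. Inhibitor 5-like CL13203 was at 8.81 to 10.75 FPKM in leaf and 6.86 to 7.69 FPKM in PLB (log2 fold change -0.56, SE 0.173, adjusted p = 0.0179). Unigene972, named for inhibitor 5-like but with a domain of a splicing-associated protein, was at 0.92 to 1.82 FPKM and then 0.31 to 0.51 FPKM (log2 fold change -2.10, SE 0.416, adjusted p = 0.00187).

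The remaining inhibitors were closer to 0. Inhibitor 4-like CL8422 overlapped, at 12.25 to 14.44 and 12.3 to 15.59 FPKM (log2 fold change 0.17, SE 0.132, adjusted p = 0.270). Inhibitor 5-like CL1864 was at 8.40 to 9.57 FPKM in leaf and 10.34 to 11.69 FPKM in PLB while its log2 fold change in the scaled counts was -0.10 (SE 0.168, adjusted p = 0.596), and inhibitor 1-like CL6228 was near 1 FPKM in both tissues (log2 fold change 0.11, SE 0.351, adjusted p = 0.780). Of these 3 units, 2 changed sign with the processing.

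**Figure D4:**
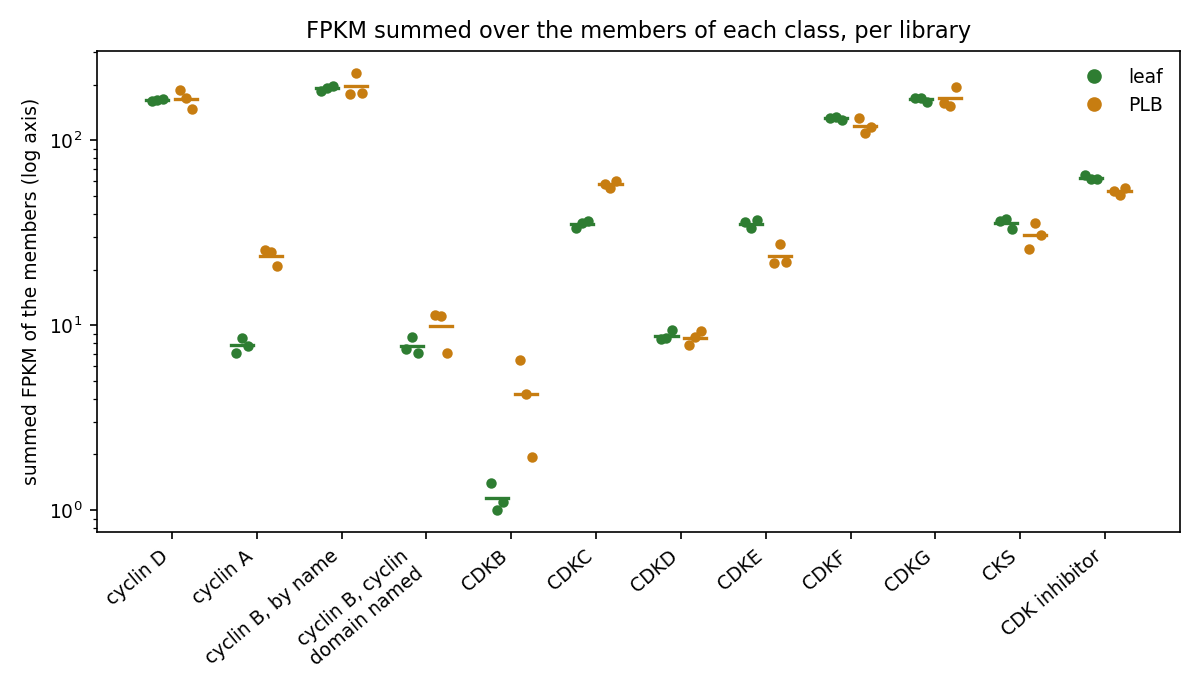
FPKM summed over the members of each class in each library (points; log axis) with the mean of 3 libraries (lines), leaf in green and PLB in orange. Cyclin A and CDKB lie higher in PLB, CDKB with a wide spread between PLB libraries, and the sum of the members named cyclin B lies at 178.4 to 232.4 FPKM by name and at 7.05 to 11.38 FPKM for those with a cyclin domain.

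Calls of single contigs went in both directions within 10 of the 23 member clusters with at least 2 tested contigs (43.5%), beside 25.9% of 10528 such clusters in the whole table. The number of contigs per cluster was not matched in this comparison. In 9 of these 10 clusters the sum was not called, and the other was CDKF-1.

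The contigs of CDKF-1 (CL5252) show how a sum can differ from its parts. Contig 1 was at 16.99, 15.55 and 17.54 FPKM in leaf and had no count in PLB (at least 575-fold), contig 4 was at 5.51, 5.33 and 4.82 FPKM in leaf and had none in PLB, and contig 2 was at 4.56, 4.64 and 3.22 FPKM in leaf and 15.61, 13.80 and 15.57 FPKM in PLB. Contig 2 thus held nearly all of the PLB signal, and its own log2 fold change was 1.54 (adjusted p = 0.00023), opposite to that of the cluster.

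In cyclin-D3-1-like CL7193, contig 1 was at 32.66, 29.78 and 28.31 FPKM in leaf and 110.4, 103.3 and 99.51 FPKM in PLB and was called higher (log2 fold change 1.48, SE 0.123, adjusted p = 4.44e-05), whereas contigs 2, 5 and 7 were called lower. In cyclin-B3-1 CL8185, contig 3 was at 3.14, 3.36 and 4.41 FPKM in leaf and 0.14, 0 and 0 FPKM in PLB, and contig 5 had no count in leaf and was at 2.23, 2.98 and 3.69 FPKM in PLB. CKS1 had contig 1 called lower and contig 2 called higher. How the contigs of a cluster relate to each other was not tested.

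**Figure D5:**
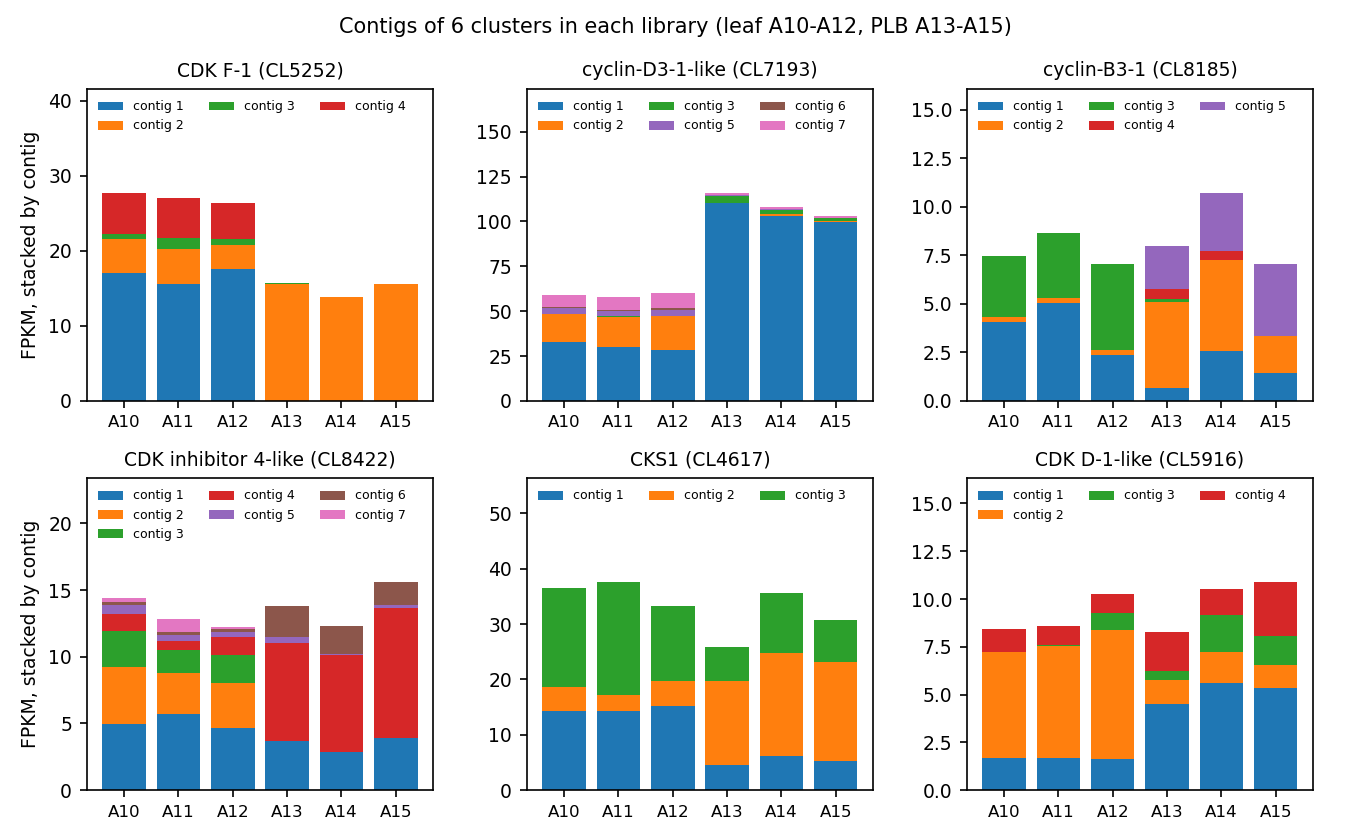
FPKM of the contigs of 6 clusters stacked for each library (leaf A10 to A12, PLB A13 to A15), each panel with its own axis from 0 and its own contig colours. Contigs 1, 2 and 4 of CDKF-1 and contigs 1 and 2 of CKS1 differ in their part of the stack between the tissues, contig 1 leads cyclin-D3-1-like CL7193 in all 6 libraries, and the heights of the stacks overlap in cyclin-B3-1, CDK inhibitor 4-like, CKS1 and CDK D-1-like.

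The genes that work with these members were taken from lists by name. Of 57 tested units in the list of partners, 15 (26.3%) were called higher and 11 (19.3%) lower, beside 17.4% and 22.9% of all cluster units. CDKA (CL2662, named cell division control protein 2 homolog A), the main kinase of D-type cyclins, was at 37.31, 36.87 and 34.25 FPKM in leaf and 28.86, 26.91 and 25.37 FPKM in PLB and was not called (log2 fold change -0.81, SE 0.111, adjusted p = 0.00025). Both retinoblastoma-related units were called, in opposite directions: CL10029 was at 32.89, 30.85 and 29.09 FPKM and then 16.79, 12.54 and 14.93 FPKM (log2 fold change -1.40), and CL9376 was at 10.37, 10.47 and 10.0 FPKM and then 22.63, 22.36 and 38.12 FPKM (log2 fold change 1.11). Of 7 tested E2F and DP units 2 were called higher, E2FA-like CL11703 and its partner DPB CL5743, by 2.04 and 1.42 on the log2 scale, and none lower. The unit of this list with the most FPKM, E2FE-like Unigene42953, was at 110.3, 129.8 and 86.14 FPKM in leaf and 29.09, 45.72 and 4.01 FPKM in PLB, and was not called (log2 fold change -2.36, SE 0.684, adjusted p = 0.0132). The other 4 lay between -0.23 and 0.76. Of the cyclins named C, H, L, P, T, U or SDS, 8 of 32 tested units were called higher and 7 lower.

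Of 105 tested units in the list of mitotic genes, 19 (18.1%) were called higher and 26 (24.8%) lower, which is near the 17.4% and 22.9% of all cluster units. In the spindle checkpoint 3 of 5 tested units were called higher and none lower, among them BUB3.1-like CL2082, at 14.8, 14.42 and 16.78 FPKM in leaf and 53.66, 58.82 and 57.04 FPKM in PLB (log2 fold change 1.99, SE 0.121, adjusted p = 3.76e-06). The microtubule bundling protein MAP65-3-like CL12003 of the cytokinetic phragmoplast was at 0.13, 0.03 and 0.05 FPKM and then 5.68, 6.69 and 5.45 FPKM (log2 fold change 6.05, SE 0.405, adjusted p = 5.8e-06). Of 13 tested Aurora kinase units 4 were called higher and 8 lower, and of 41 tested units of the MAP65 family 7 and 11, so the lists did not move as 1 group. The units of the mitotic list given with values were chosen after those values were seen. All of them were higher in PLB, whereas more units of the list were called lower (26) than higher (19). The rule left out 5 unigenes named G2/mitotic-specific cyclin, which summed to 1.25, 1.24 and 1.13 FPKM in leaf and 4.27, 2.03 and 1.31 FPKM in PLB. They did not share 1 pattern, nor were all of them on cyclin loci. Unigene23038 and Unigene13268 lie on LOC110111130, a locus without a cyclin name whose cyclin-B2-2 unigenes had no cyclin domain. CL12859 is the unigene of LOC110114934 that is not a member, so its level is already in the sum of that locus above. S13-7-like Unigene41600 was at 0.07, 0.07 and 0 FPKM in leaf and 1.92, 1.35 and 0 FPKM in PLB, with A15 the lowest PLB library. Unigene23038 was at 1.04, 1.10 and 0.93 FPKM in leaf and 0.06, 0 and 0.22 FPKM in PLB, with A15 the highest of them, as it was for CL12859 and Unigene13268.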

How the data were processed

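The authors sequenced the libraries on the BGISEQ-500 platform, assembled unigenes with Trinity and Tgicl and, per the labels' processing notes, used Bowtie2 2.2.5, RSEM 1.2.8 and DESeq2. For each library the authors deposited expected counts, TPM and FPKM per unigene, and for the series an FPKM table with annotation; TPM and the authors' own fold changes and p-values of PLB against leaf were not used. Reads were not processed again.

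Expected counts were rounded and fitted with R 4.3.3 and edgeR 4.0.16 (filterByExpr, TMM, glmQLFit, glmQLFTest, Benjamini-Hochberg over all features tested) for unigenes, for sums over contig clusters and for sums over loci. Standard errors were obtained as |log2 fold change| over √F. The biological coefficient of variation was 0.337, 0.245 and 0.188 at these levels. The main edgeR fit of each level was run on simulated data, and the alternatives below were not. The simulated counts had a common spread for all features and few changed features. They therefore do not show how the fits perform on these data. The thresholds are those of the study. FPKM of a cluster or locus is the sum over its contigs. Bounds against a tissue at 0 set its summed count to 3, relative to the library totals, and cover counting error only.

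The study names 3 biological replicates per tissue, and p-values measure the spread between these libraries. No pair of libraries agreed within sampling noise: chi-square per degree of freedom over unigenes with at least 20 counts in the pair was 5.60 to 6.81 between leaf libraries and 19.0 to 22.7 between PLB libraries.

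The members and lists were chosen with earlier results of these data known. Units named are, in each class, the 3 called higher and the 3 called lower with the most counts, the unit with the most counts, every tested inhibitor and CKS unit, the highest FPKM in each tissue, and every cluster with contigs called in both directions. Cyclin-A1-4, Unigene57518, CDKB2-1 as a locus, cyclin-B2-2 on its cyclin loci, cyclin-D3-2-like, cyclin-D3-3-like, Unigene42166, Unigene28934, Unigene42688, CL11074, CL510, CL10191, Unigene57193, Unigene42146, Unigene42182, Unigene36386, Unigene30206, Unigene3314, LOC110092169 and the partners, mitotic genes and mitotic-specific cyclins given with values fall outside this rule and were chosen after their values were seen. Loci were chosen by the same rule, and those that repeat a cluster are not given again. Of 222 members, 15 were at 0 in every library. Alternatives were DESeq2 1.42.0, RLE size factors, library size alone, no filter, at least 10 counts in 3 libraries, limma 3.58.1 on log2(FPKM + 0.1) and log2(FPKM + 1), an adjusted p under 0.05 with no minimum fold change, membership by the unigene with the most counts, leaving out each library and, chosen after seeing the data, only members with the domain of their class. Tables and plots used Python 3.11.15, pandas 2.3.3, numpy 2.4.6 and matplotlib 3.10.9. Sequences of the members were not used here.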

Additional observations from a re-analysis of the deposited data

How the results depend on the processing

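Members called higher and lower in PLB numbered 30 and 37 as unigenes, 5 and 10 as cluster units and 4 and 6 as loci. With an adjusted p under 0.05 and no minimum fold change they numbered 53 and 66, 16 and 24, and 12 and 15. DESeq2 called 8 cluster units and 7 loci higher. With no filter on low counts, 13 cluster units were called higher and 16 lower of 88 tested. limma called 8 cluster units higher with a pseudocount of 0.1 and 6 lower with a pseudocount of 1, and 3 loci lower with 0.1. Leaving out 1 library gave 14 to 21 unigenes higher and 15 to 26 lower, 5 to 8 cluster units higher and 6 to 8 lower, and 3 to 7 loci higher and 4 to 6 lower. Keeping only members with the domain of their class gave 27 and 34 unigenes, 5 and 9 cluster units and 4 and 5 loci. For these alternatives the shares over all features were not determined, so the counts cannot be set against the background.

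Of 57 named units, the sign reversed only among units that were not called. With library size alone the log2 fold change was 0.242 for CL1864, 0.019 for CL5916, 0.091 for CL2942, 0.295 for CL13719, 0.134 for CL8185, 0.201 for LOC110095888, 0.015 for LOC110098519, 0.208 for LOC110093118 and 0.039 for LOC110112667. With limma at pseudocounts of 0.1 and 1 it was 0.288 and 0.265 for CL1864 and for LOC110095888, 0.114 and 0.104 for CL5916 and for LOC110108334, 0.240 and 0.235 for CL2942, 0.027 at both for CL687 and for LOC110104464, 0.222 and 0.215 for CL13719, 0.136 and 0.124 for CL8185, 0.136 and 0.134 for LOC110098519, and 0.041 and 0.039 for LOC110112667. Library size alone moves the median of all units by the shift given above, and neither it nor FPKM holds the TMM factors. Over the fits that leave out a library the range was -0.206 to 0.004 for CL1864, -0.095 to 0.325 for CL6228, -0.061 to 0.173 for CL4977, -0.102 to 0.045 for LOC110095888, -0.002 to 0.408 for LOC110114382 and -0.047 to 0.023 for LOC110093118. DESeq2, RLE size factors and the filter at 10 counts changed no call of these 57 units. Outside this set, DESeq2 called units that the main fit did not. They include cyclin-B2-2 LOC110114934, cyclin-A2-1-like LOC110092169, cyclin-D3-2-like LOC110104947 and its Unigene36386, and cyclin-D6-1 Unigene42166.

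No paired analysis was possible because the labels give leaf and PLB libraries no shared replicate numbers. Depth limits the cyclin-B2-2, cyclin-A1-4 and CDKB values, which rest on 0 to 157 counts per tissue.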
